A study of Mus musculus with 8 samples.

Results

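The genes described here are the zinc finger protein (Zfp) genes among the changed genes of embryonic mouse skin without corneodesmosin. They were chosen as the genes of the authors' deposited table whose symbol begins with Zfp and a digit. This gave 61 genes, each with 1 probe set in that table, of 5080 genes with a symbol there. The table itself holds the 5460 of 33793 probe sets (16.2%) that passed 2 limits in the KO against WT contrast, 0.05 on the adjusted p and 0.5 on the size of the log2 change. The genes were thus selected on these measured changes, and the changes below describe the members without testing them.

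Zfp genes are a large and old class of mouse genes named for a protein fold in which a zinc ion holds a short loop together. Most encode DNA-binding proteins with arrays of C2H2 zinc fingers, and many of these carry a KRAB domain, which recruits the co-repressor TRIM28 (KAP1) and silences transposable elements and genes. KRAB zinc finger genes arose by repeated duplication and lie in clusters on several mouse chromosomes. A small branch is different: Zfp36 encodes tristetraprolin, a CCCH zinc finger protein that binds AU-rich elements in the messenger RNA of cytokines and speeds their decay.

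RNA was measured on Affymetrix Gene Mouse 2.0 ST arrays, on which several short probes read each gene. KO embryos (n = 4) had the genotype KRT14-Cre(tg/0)/Cdsnfl/fl and WT embryos (n = 4) KRT14-Cre(tg/0)/Cdsnwt/wt, both on a C57B/6J background and both taken by caesarean at stage E18.5. The transgene drives Cre from a keratin 14 promoter, active in keratinocytes, while the RNA came from whole dorsal skin, tape-stripped and then kept on culture medium for 4 h. In such bulk samples, more cells of a type and more RNA per cell cannot be told apart.

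Cdsn itself, the targeted gene on chromosome 17, had a log2 intensity of 8.38 ± 0.42 (SD, n = 4) in KO skin. In WT skin it stood at 11.84 ± 0.18 (SD, n = 4). KO arrays were slightly brighter, with medians of 4.81 to 4.88 against 4.70 to 4.80 on WT arrays, so that the changes of all probe sets had a median of 0.09, which became −0.02 once each array had been centred on its own median. Of the KO arrays, replicate 3 came closest to WT on the first principal component, while WT replicate 1 was distant from the rest on the second.

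Among the 61 genes, 39 were higher and 22 lower in KO skin. Of all probe sets, 11.8% met the authors' criteria as higher and 4.40% as lower. Rises made up 63.9% of the Zfp genes and 74.1% of the 5019 other named genes. Changes were small: the median was 0.67 among the rises and −0.59 among the falls, against 0.70 and −0.68 in the other named genes, and 52 of the 61 genes changed by less than 1 on the log2 scale, that is by less than a doubling or a halving. The 4 KO and 4 WT values did not overlap in 49 genes (34 higher, 15 lower), or 80.3%, against 87.7% of the other named genes and 25.0% of all probe sets. Centring the arrays on their medians lowers every change by the same amount, so that rises shrink and falls grow in size. After centring, 27 of the 39 rises (69.2%) and all 22 falls passed the threshold. Among the other named genes 73.7% of the rises and 100% of the falls did. Of all probe sets, 8.77% were then called higher and 9.10% lower.

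**Figure D1:**
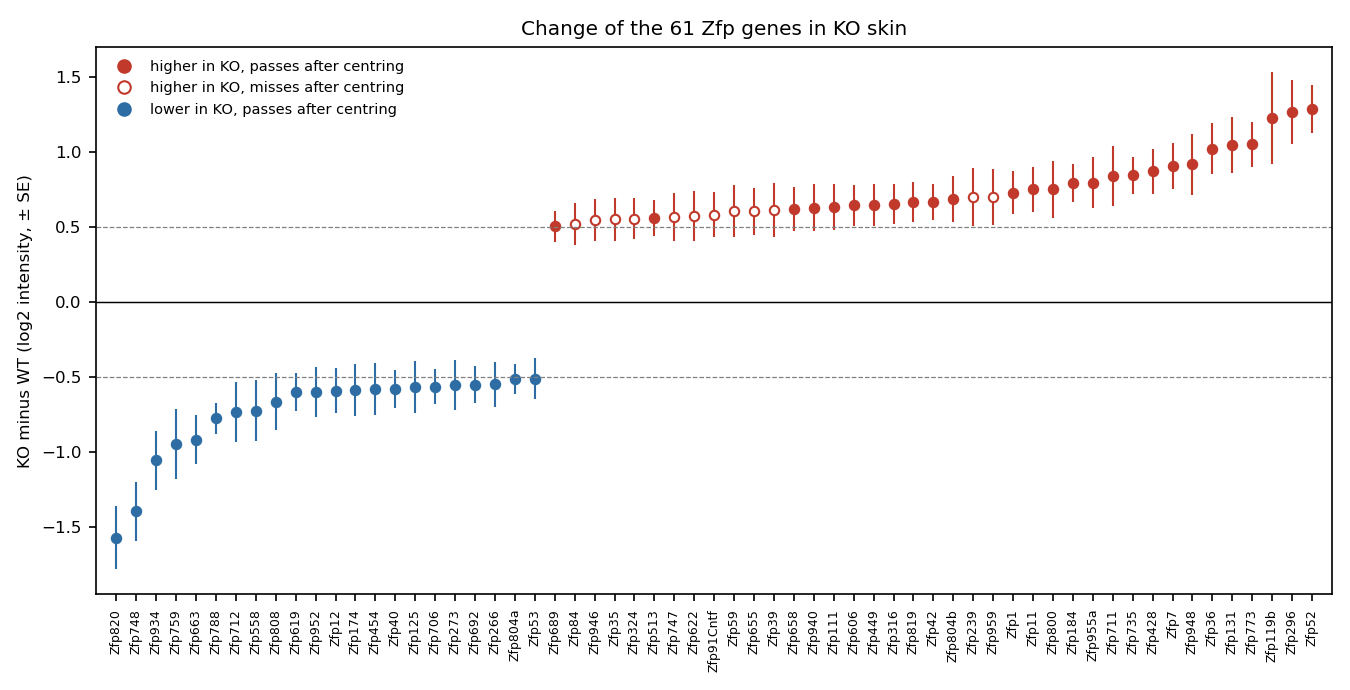
KO minus WT change in log2 intensity (y axis, with the limma standard error) of each of the 61 Zfp genes (x axis), in order of change. Dashed lines mark the authors' limit of 0.5. The 12 open points are rises that missed the threshold after each array was centred on its median, and they lie between 0.52 and 0.70.

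The share of Zfp genes that reached the table was close to that of all genes. RefSeq lists 397 protein-coding genes with such symbols, and 59 of them (14.9%) were among the members, while 3250 of 21900 protein-coding genes (14.8%) were named in the table. The other Zfp genes did not meet the criteria, were not on the array or were among the probe sets without a symbol. Just inside the limit on size lay Zfp689 (0.51), Zfp53 (−0.51) and Zfp804a (−0.51). The nearest probe sets outside it, which have no names here, changed by 0.49998, 0.49984 and 0.49984.

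The array maker's annotation class was 1 for 59 of the genes and 3 for Zfp808 and Zfp934. The maker uses these classes for probe sets that are unique to a transcript and for mixed ones, though the table itself does not say so. Class 3 held 3.28% of the Zfp genes and 10.6% of the other named genes. Probe sets held 8 to 36 probes, with a median of 19. Genes of a cluster can still resemble each other over stretches that probes read, which was not measured, so single values inside the clusters are uncertain.

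By position, 34 of the 61 genes (55.7%) lay on chromosomes 7 (16 genes), 17 (10) and 13 (8), which held 16.1% of the other named genes. The remaining 27 were spread over 12 further chromosomes. Chromosomes 7, 13 and 17 were singled out after their counts were seen. How many of all Zfp genes lie on them was not counted, so the comparison does not separate the changed genes from the family. On chromosome 13, 6 of 8 members were lower in KO skin, where 26.7% of the other named genes of that chromosome were lower. On chromosome 7, 14 of 16 were higher, beside 74.2% of the other named genes there. Chromosome 17, which also carries Cdsn, held 6 rises and 4 falls. In the RefSeq gene order 8 of these 10 genes lay on one side of Cdsn and 2 on the other, and the nearest, Zfp955a, was separated from it by 121 protein-coding genes.

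**Figure D2:**
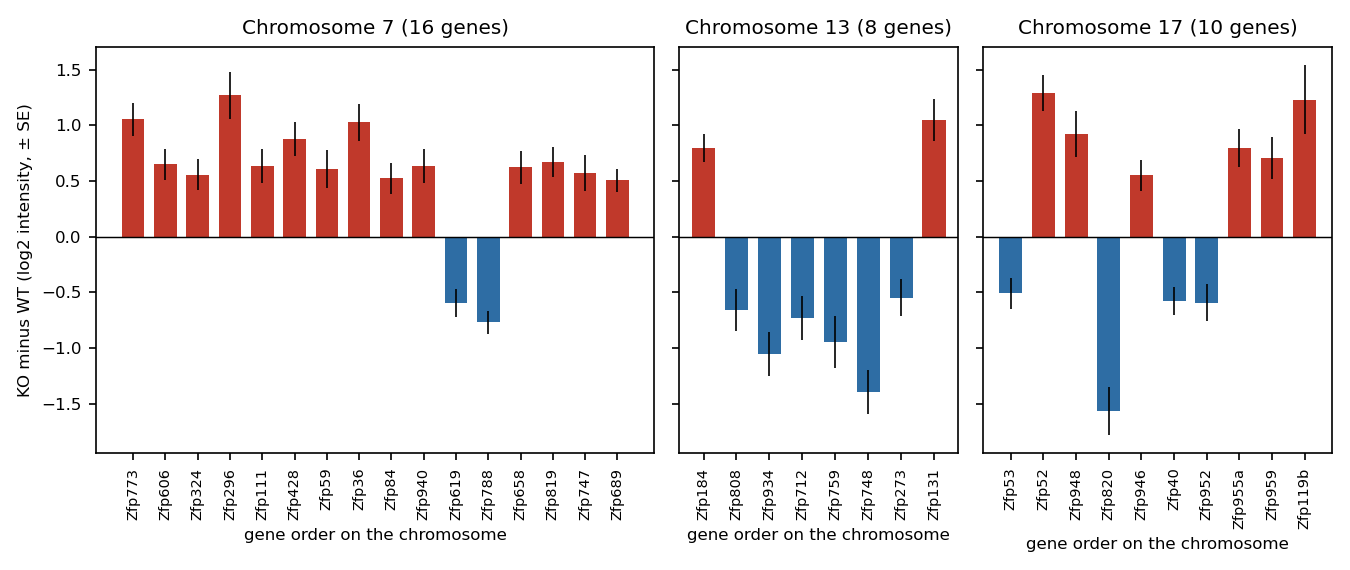
KO minus WT change in log2 intensity (bars, with the limma standard error) of the Zfp genes on chromosomes 7, 13 and 17, in their order along the chromosome (x axis, not to scale). Falls sit together on chromosome 13 (Zfp808 to Zfp273) and in the pair Zfp619 and Zfp788 on chromosome 7, while chromosome 17 holds 6 rises and 4 falls in mixed order.

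The 6 falls on chromosome 13 formed 2 groups of neighbours. The first held Zfp808 and Zfp934, with 3 protein-coding genes between them. The second ran from Zfp712 through Zfp759 and Zfp748 to Zfp273 within a stretch of 25 protein-coding genes, 23 of them with Zfp symbols, of which 19 were not in the authors' table. One other gene of this stretch was in the table, Rslcan18, named after the regulator of sex-limitation cluster, and it fell too, by 0.60. Both members of the chromosome that rose, Zfp184 (0.79 ± 0.13, SE) and Zfp131, lay outside these groups.

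Zfp748 read 4.20, 3.90, 4.70 and 4.08 on KO replicates 1 to 4 and 5.57, 6.02, 5.29 and 5.57 on WT replicates 1 to 4. Every KO array was below every WT array, with KO replicate 3 the nearest to them, and the change was −1.39 ± 0.20 (SE), a level 2.63-fold lower. Zfp934 read 2.74, 2.62, 3.26 and 2.91 in KO and 4.40, 4.05, 3.67 and 3.64 in WT skin. Its change was −1.05 ± 0.20 (SE), from a probe set of class 3 with 10 probes. Zfp759 read 3.65, 3.67, 3.66 and 2.57 in KO and 4.21, 4.35, 4.22 and 4.55 in WT skin, a change of −0.95 ± 0.23 (SE). In both genes the groups stayed apart, but the lowest Zfp759 value, from KO replicate 4, stood more than 1 below the other KO arrays. The other 3 genes fell less, and in each of them KO replicate 3 lay inside the WT range. Zfp712 changed by −0.73 ± 0.20 (SE), Zfp808 by −0.66 ± 0.19 and Zfp273 by −0.55 ± 0.17. These 3 missed the threshold in 6, 7 and 9 alternatives, among them the fits without KO replicates 1, 2 or 4 (each) and without variance moderation. Zfp759 missed it without variance moderation.

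The promoters of the second group are shown because these 4 neighbours moved the same way. The windows are the 250 bases before the RefSeq start, printed 5′ to 3′ on the strand of the gene. Capitals mark TGGGAANTGTAGT, a 13-base element that is the longest run shared by all 4 windows with 1 variable base. Read on the other strand, it holds the ACTACA core known from sites of the zinc finger protein ZNF143. It begins 57 bases before the start in Zfp712, 53 in Zfp759, 27 in Zfp748 and 68 in Zfp273. The windows are chr13:67061171-67061420 (minus strand), chr13:67127978-67128227 (plus strand), chr13:67553153-67553402 (minus strand) and chr13:67813566-67813815 (plus strand), in the same order and in GRCm38.p6.
Zfp712: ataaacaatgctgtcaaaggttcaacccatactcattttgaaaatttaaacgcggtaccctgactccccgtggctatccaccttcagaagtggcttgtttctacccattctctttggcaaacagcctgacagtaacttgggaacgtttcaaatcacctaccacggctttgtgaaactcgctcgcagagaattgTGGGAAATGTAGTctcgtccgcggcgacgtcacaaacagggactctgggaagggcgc
Zfp759: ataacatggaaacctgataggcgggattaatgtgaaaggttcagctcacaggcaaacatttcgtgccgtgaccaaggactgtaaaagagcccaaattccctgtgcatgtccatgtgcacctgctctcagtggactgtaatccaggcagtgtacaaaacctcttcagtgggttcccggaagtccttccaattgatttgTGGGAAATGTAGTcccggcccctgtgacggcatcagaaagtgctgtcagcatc
Zfp748: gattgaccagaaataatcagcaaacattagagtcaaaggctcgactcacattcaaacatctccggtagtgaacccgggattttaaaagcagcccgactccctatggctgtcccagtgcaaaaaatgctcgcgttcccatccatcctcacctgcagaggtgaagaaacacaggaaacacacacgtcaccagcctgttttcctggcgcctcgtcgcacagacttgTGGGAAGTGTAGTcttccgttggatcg
Zfp273: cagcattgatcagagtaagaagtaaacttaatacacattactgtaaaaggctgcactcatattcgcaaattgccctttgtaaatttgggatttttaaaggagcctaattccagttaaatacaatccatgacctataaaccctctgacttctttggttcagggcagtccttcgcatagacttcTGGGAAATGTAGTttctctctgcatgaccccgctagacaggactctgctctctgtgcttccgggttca

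Over their whole length these windows were 53.1% to 55.3% identical in pairwise alignment with gaps. Other promoters were not aligned, so these values do not show how related the 4 windows are. On either strand the element occurred in 212 of 27025 promoters (0.784%) and in 12.2% of the 279 promoters of Zfp genes that are no members. Since the 4 windows above defined it, they are left out of the members' share, which was 5 of the 49 other member promoters matched (10.2%). Within the Zfp712 to Zfp273 stretch it also stood in 10 of 16 promoters of Zfp genes that were not in the table, so in this stretch it is found in genes that met the authors' criteria and in genes not listed there. Of the 5 other members that carried it, Zfp84, Zfp940, Zfp111 and Zfp1 rose and Zfp454 fell. Member promoters also held more CpG pairs than promoters in general (medians 11 and 6), as did those of the other Zfp genes (10). The CCAAT box was in 45.3% of member promoters, in 49.5% of those of other Zfp genes and in 34.5% of all, and the ETS core CCGGAAG in 22.6%, 16.8% and 7.05%.

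On chromosome 17, 1 of 3 pairs of direct neighbours went opposite ways, Zfp53 and Zfp52. Zfp53, Zfp52 and Zfp948 lie next to each other in the RefSeq order. Zfp53 read 5.53, 5.40, 5.61 and 5.22 in KO and 6.10, 5.90, 6.11 and 5.69 in WT skin, a change of −0.51 ± 0.14 (SE). Zfp52 read 4.88, 4.41, 4.70 and 4.83 in KO and 3.23, 3.67, 3.16 and 3.59 in WT skin. The groups of Zfp52 were separated by 0.74, and its change of 1.29 ± 0.16 (SE), or 2.45-fold, was the largest rise of the 61 genes. Zfp948 read 9.22, 9.56, 8.72 and 9.55 in KO and 8.22, 8.65, 8.04 and 8.47 in WT skin, a change of 0.92 ± 0.20 (SE). KO replicate 3 was its lowest KO value, only 0.07 above the highest WT array. Zfp53 missed the threshold in 6 alternatives and Zfp948 in 1, without variance moderation.

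The largest fall of all came from the same neighbourhood. Zfp820, with 4 protein-coding genes between it and Zfp948, read 3.56, 3.15, 3.59 and 3.62 in KO and 4.39, 5.33, 5.10 and 5.37 in WT skin. Every KO array was at least 0.78 below the WT arrays, of which replicate 1 was the lowest, and the change was −1.57 ± 0.21 (SE), a level 2.96-fold lower. The probe sets of Zfp820, Zfp52 and Zfp53 hold 9, 11 and 10 probes, fewer than the median of 19. The same stretch held Zfp946 (0.55 ± 0.14, SE) and Zfp40 (−0.58 ± 0.13), so 3 of its 6 members rose and 3 fell. A second adjacent pair, Zfp959 (0.70 ± 0.19) and Zfp119b (1.23 ± 0.31), rose together, but in both of them 1 WT array, replicate 2, reached into the KO range. Zfp946 and Zfp959 missed the threshold after centring (adjusted p = 0.0631 and 0.0541).

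Taking every stretch with at most 15 protein-coding genes between neighbouring members, 30 of the 59 genes placed in the RefSeq order fell into 12 stretches, and members moved in 1 direction in 9 of these. Of 18 neighbouring pairs inside the stretches, 12 moved the same way and 6 opposite ways, and 5 of the opposite pairs were on chromosome 17. The sixth was Zfp12 (−0.59 ± 0.15, SE) and Zfp316 (0.66 ± 0.13), adjacent on chromosome 5. Since 63.9% of the Zfp genes rose, many pairs would move the same way even if neighbours were unrelated. The share of such pairs was not worked out. Whether neighbours moved together more often than that was therefore not tested.

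On chromosome 7 the 2 falls were neighbours as well. Zfp788 read 4.58, 4.73, 4.63 and 4.71 in KO and 5.47, 5.37, 5.52 and 5.38 in WT skin. This was among the tightest patterns of the set, with an SD of 0.07 in each genotype, a gap of 0.64 between the groups and a change of −0.77 ± 0.10 (SE). Zfp619 fell by 0.60 ± 0.13 (SE) without overlap, though it missed the threshold without KO replicate 3 and WT replicate 1 together (adjusted p = 0.0527). The table's 2 other named genes between them, Gm5592 (0.61) and AW146154 (0.83), were higher in KO skin.

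Among the members with a known role, Zfp36 was the brightest probe set of the 61. It read 11.67, 11.87, 11.29 and 11.90 in KO and 10.61, 10.44, 10.58 and 11.00 in WT skin. KO replicate 3 was the lowest KO array and WT replicate 4 the highest WT array, with 0.30 between them. The change was 1.02 ± 0.17 (SE), or 2.03-fold, and passed the threshold in all 16 refits. Its promoter is shown because Zfp36 is known as an immediate early gene, induced within minutes by growth factors and inflammatory signals. Capitals mark, from left to right, GCGGGGGCG (a binding motif of EGR factors, 105 bases before the start), CCGGAAG (ETS, 92) and a CArG box (serum response factor, 58). These motifs were found in 2.56%, 7.05% and 1.40% of all promoters. The window is chr7:28379229-28379478 in GRCm38.p6, printed on the minus strand.
Zfp36: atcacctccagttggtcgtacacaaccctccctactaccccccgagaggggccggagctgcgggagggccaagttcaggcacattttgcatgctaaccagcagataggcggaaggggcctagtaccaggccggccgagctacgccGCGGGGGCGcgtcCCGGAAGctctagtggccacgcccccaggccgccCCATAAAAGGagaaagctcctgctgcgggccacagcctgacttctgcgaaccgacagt

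A list of mRNA decay partners of this protein family and of messages it is known to act on had 34 genes, of which 11 were named in the authors' table, all of them higher, with a median change of 2.06. Of these, 10 were cytokine, chemokine and prostaglandin synthase messages, led by Il1b (2.97 ± 0.28, SE), Ptgs2 (2.49 ± 0.41), Cxcl3 (2.43 ± 0.33) and Ccl2 (2.33 ± 0.28). Named after seeing their values were Il23a (1.70 ± 0.21), Csf2 (1.33 ± 0.23) and Tnf (1.29 ± 0.36), the classical target of tristetraprolin, whose groups overlapped. The eleventh was Pabpc1 (0.70 ± 0.12), the poly(A)-binding protein gene. No deadenylase or decapping gene on the list had a row of its own in the table. Of all protein-coding genes, 14.8% were named in the table. All 11 passed after centring, and their share of rises stands beside 74.1% among the other named genes.

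Zfp131, which encodes a BTB-domain transcription factor, read 9.36, 8.85, 8.50 and 9.19 in KO and 7.80, 7.84, 7.88 and 8.19 in WT skin. All KO arrays were higher, and the change was 1.05 ± 0.19 (SE), or 2.07-fold. Zfp296, first known from embryonic stem cells and a partner of Klf4, read 6.83, 6.23, 5.90 and 6.11 in KO and 4.96, 4.87, 4.74 and 5.43 in WT skin. It was the second largest rise without overlap, at 1.27 ± 0.21 (SE) or 2.41-fold. Zfp773 read 4.24, 4.05, 3.66 and 3.82 in KO and 3.09, 2.77, 2.98 and 2.73 in WT skin, and rose by 1.05 ± 0.15 (SE). In these 3 genes and in Zfp36 the call held in all refits that included them. They were 4 of the 6 rises that passed 1 on the log2 scale, the others being Zfp52 and Zfp119b.

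Other genes linked to pluripotent cells were dim here. Zfp42 (Rex1), a marker of embryonic stem cells, read 3.88 to 4.15 in KO and 3.23 to 3.58 in WT skin (0.67 ± 0.12, SE). Zfp819, a KRAB zinc finger gene known from mouse embryonic stem cells, read 3.44 to 3.85 in KO and 2.71 to 3.12 in WT skin (0.67 ± 0.13, SE). Both lay below the median of all probe sets, 4.76, where brightness may hold little signal from the gene; detection values were not used here. The dimmest members were Zfp735, which read 2.40 to 2.65 in KO and at most 1.84 in WT skin, and Zfp804a, which read 2.34 to 2.51 in KO and 2.90 to 3.01 in WT skin. In all, 26 of the 61 lay below that median and 35 above it, and the limit on signal holds for all 26. Among the 26 were Zfp820 (mean over the 8 arrays 4.26) and Zfp52 (4.06), the largest fall and the largest rise. So were Zfp119b (3.92), Zfp759 (3.86), Zfp773 (3.42), Zfp934 (3.41) and Zfp273 (2.95).

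Of the 5 brightest members, Zfp706 and Zfp266 were lower in KO skin. Zfp706, a small zinc finger gene, read 10.14, 10.06, 10.34 and 10.17 in KO and 10.56, 10.77, 10.74 and 10.88 in WT skin. The groups were apart by 0.23, with a change of −0.56 ± 0.12 (SE), which passed in all 16 refits. Zfp266, a KRAB gene known in mouse as a barrier to reprogramming, read 9.84, 9.82, 10.38 and 9.94 in KO and 10.60, 10.65, 10.61 and 10.30 in WT skin. Its groups overlapped, since KO replicate 3 lay above WT replicate 4, and the change of −0.55 ± 0.15 (SE) missed the threshold in 7 alternatives. Zfp622, which takes part in ribosome assembly, rose by 0.58 ± 0.17 (SE). After centring it no longer passed the threshold (adjusted p = 0.0778), nor did it in 8 further alternatives.

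Further rises without overlap were Zfp7 (0.91 ± 0.16, SE), Zfp428 (0.87 ± 0.15), Zfp735 (0.85 ± 0.12) and the X-linked Zfp711 (0.84 ± 0.20), whose human counterpart is an intellectual disability gene. Further falls were Zfp663 (−0.92 ± 0.16), Zfp952 (−0.60 ± 0.17), Zfp12 and Zfp454 (−0.58 ± 0.17). Zfp663 read 4.19, 3.95, 4.26 and 3.98 in KO and 5.23, 4.61, 5.30 and 4.90 in WT skin, with 0.35 between the groups. In Zfp454 only 0.01 separated the nearest KO and WT arrays. Zfp952 and Zfp454 each missed the threshold in 6 alternatives, Zfp12 in 5 and Zfp711 in 1.

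**Figure D3:**
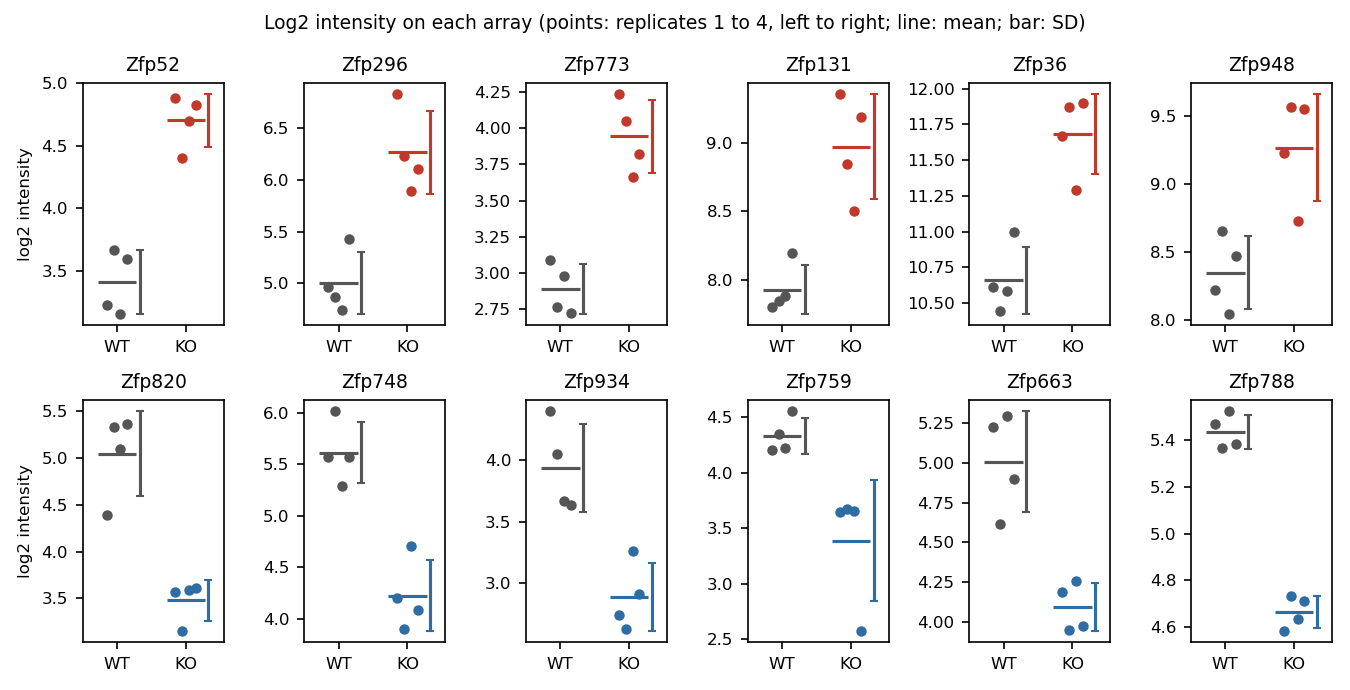
Log2 intensity (y axis, scaled per gene) on each of the 4 WT and 4 KO arrays (points, replicates 1 to 4 from left to right) with the mean (line) and SD (bar), for 6 rises (top) and 6 falls (bottom). In all 12 genes the KO and WT points do not overlap; Zfp948 has the narrowest gap, 0.07.

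KO replicate 3 was often the KO array nearest to WT. It had the lowest KO value in 18 of the 39 rises (46.2%) and the highest in 13 of the 22 falls (59.1%). In the other named genes it was lowest in 39.7% of the rises and highest in 32.4% of the falls. KO replicate 1 had the highest KO value in 18 of the 39 rises, against 30.9% in the other named rises. The median SD within a genotype was 0.25 for KO and 0.21 for WT in the Zfp genes, and 0.20 in both genotypes in the other named genes. With all arrays 15.2% of all probe sets passed the threshold alone as higher and 6.08% as lower, whatever the size of the change. Without KO replicate 3, 35 of the 39 rises and 21 of the 22 falls still did. Without KO replicate 2, 33 rises and 11 falls passed. Calls among all probe sets dropped as well, from 5138 higher and 2056 lower to 4604 and 1820 without KO replicate 3. Without KO replicate 2 they were 3581 and 1376.

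Partners of the KRAB class were few in the table, where 14.8% of all protein-coding genes were named. Of 22 symbols of co-repressor and silencing genes in a list built around Trim28 and Setdb1, 1 was named. It was Zscan4c (0.88 ± 0.17, SE), a gene of early embryos that is itself no co-repressor. Trim28, Setdb1 and the heterochromatin protein genes Cbx1, Cbx3 and Cbx5 were not named, which says that they missed the authors' criteria, were not measured or carried no symbol.

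Zinc finger genes with other symbols went mostly the way of the other named genes. Of 48 zinc finger transcription factors known from skin, 12 were named, 9 higher and 3 lower, where 14.8% of all protein-coding genes were named. The largest changes were those of Klf6 (1.30 ± 0.21, SE), Egr2 (1.21 ± 0.28, groups overlapping), Ovol1 (0.94 ± 0.22) and Klf10 (0.92 ± 0.23), and the 3 falls were Gata3 (−0.90 ± 0.11), Trps1 (−0.75 ± 0.13) and Ikzf2 (−0.71 ± 0.16). By symbol family, 12 of 13 Rnf (RING finger) genes and 4 of 5 Zdhhc (palmitoyltransferase) genes were higher, beside 74.1% of the other named genes. After centring, 9 of the 13 and 4 of the 5 passed the threshold. Of the smaller families, 2 of 3 Zbtb, 1 of 2 Zc3h and 1 of 2 Zmiz genes were higher. The Zcchc, Zmat and Zfand families had 1 named gene each, which rose. In the SCAN-domain families 2 of 7 named genes were higher: 1 of 3 Zkscan and 1 of 4 Zscan genes. The Zscan4 genes are near-identical copies, so the rise of Zscan4c and the falls of Zscan4b (−0.76 ± 0.16) and Zscan4d (−0.72 ± 0.21) are uncertain.

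Some genes listed as markers of other cells changed with the genotype too, though in whole skin the cells that held their RNA are not known. Of 5 markers each, 3 neutrophil, 3 macrophage and 3 T cell genes were named and all were higher, by 0.68 (Lyz2) to 1.24 (S100a8). Lyz2, whose groups overlapped, and S100a8 missed the threshold after centring (adjusted p = 0.0657 and 0.0616). Single markers of muscle (Myh1, 1.28 ± 0.20, SE), erythroid cells (Hbb-bt, 0.85 ± 0.15) and melanocytes (Mlana, 0.70 ± 0.19) were higher as well, of 4, 3 and 4 on their lists. The keratinocyte gene Lor, the only 1 named of 5 on its list, fell by 0.53 ± 0.14 (SE). Of the fibroblast genes 0 of 4 and of the endothelial genes 0 of 3 were named, beside 14.8% of all protein-coding genes. Markers that were not named have no level here, so a summed level of a list could not be given, and the part of other cells in the Zfp changes was not tested.

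**Figure D4:**
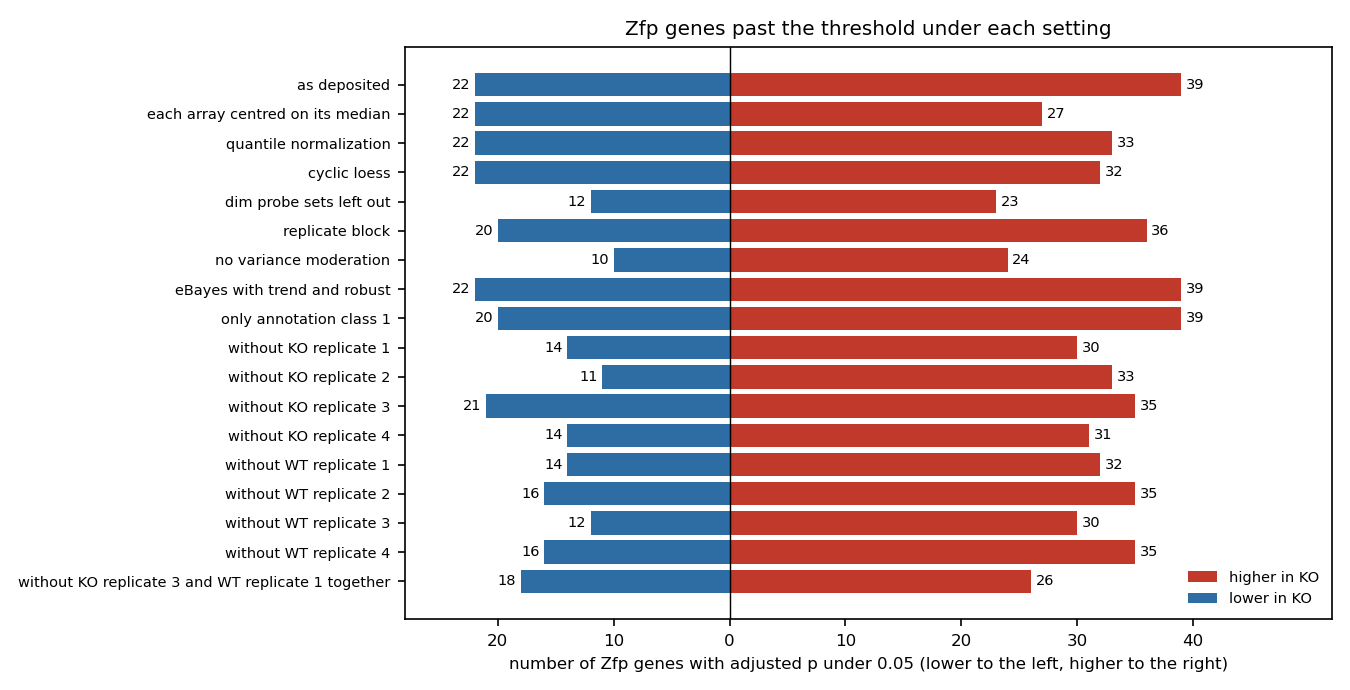
Number of the 61 Zfp genes with a limma adjusted p under 0.05 (x axis; lower in KO to the left, higher to the right) under the deposited values and each alternative (y axis). Rises fell to 27 after centring, which lowers every change alike, while falls stayed at 22. Without KO replicate 2, 11 falls passed, and the calls among all probe sets dropped from 7194 to 4957.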

How the data were processed

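Per the labels' protocols, total RNA was extracted on RNeasy columns from whole dorsal skin and hybridised after biotin labelling. The authors deposited log2 intensities, 1 value per probe set and array, and the submitters' processing notes name RMA, a background correction and summary method, without its role or version. Per the file headers, the authors' deposited table gives mean log2 intensities, the linear fold (KO over WT), its log2 value, p-values and Benjamini-Hochberg adjusted p-values for the probe sets past 2 limits, 0.05 on the adjusted p and 0.5 on the size of the log2 change.

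The values were fitted as deposited by genotype alone, with lmFit and eBayes of limma 3.58.1 under R 4.3.3, over all 33793 probe sets, with Benjamini-Hochberg adjustment over all of them and a threshold of 0.05. Every adjusted p in the text comes from limma. Each Zfp gene had 1 probe set in the authors' table, so none had to be chosen. Probe sets outside that table carry no symbol here, so further probe sets of the same genes could not be looked for. Gene order, gene names and promoter sequences came from RefSeq (GRCm38.p6), to which 60 of the 61 genes were matched, 57 by accession. For the array table, the sources used here give no build. Promoter windows were the 250 bases before the start listed first, and motifs were searched on both strands. Protein sequences were not analysed here, so the planned count of zinc fingers was not made.

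The Zfp genes, the lists and the tests were chosen with earlier results of these data known. The genes named were the 10 largest rises and 10 largest falls without overlap between the groups, the 5 brightest and 2 dimmest, those on a list of members with a known role, the 3 nearest to the size limit, and up to 4 genes of each other list. Further genes are named for their position on a chromosome or in a count, after their values were seen. Alternatives were other scalings, a filter on dim probe sets, a replicate block, other variance models, only annotation class 1 and leaving out arrays. Precision is limited by the number of arrays, 4 per genotype. Litters and sexes are not in the labels, and the only spread behind a p-value is that between these 8 embryos. Same-numbered KO and WT arrays did not deviate together in every pair (correlations of deviations from the group means −0.03, 0.14, 0.23 and 0.01 for replicates 1 to 4), so the numbers were not taken as pairs. Arrays with different numbers gave −0.21 to 0.19. Whether KO and WT embryos were matched in another way was not tested.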

Additional observations from a re-analysis of the deposited data

Results flagged for a closer look

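In each Zfp gene the lowest and highest of the 4 values of a genotype were set against their neighbours, and in 12 of 122 groups the gap, divided by the range, was above the 95% critical value of Dixon's test. By chance alone 1 in 20 groups, or 6.1 of 122, would be. All are log2 intensities. In KO skin the lowest values were Zfp820 in replicate 2 at 3.15 (others 3.56 to 3.62), Zfp759 in replicate 4 at 2.57 (3.65 to 3.67) and Zfp959 in replicate 3 at 5.69 (6.43 to 6.48). The highest were Zfp689 in replicate 3 at 5.56 (5.36 to 5.37), Zfp59 in replicate 3 at 4.74 (4.56 to 4.58) and Zfp735 in replicate 4 at 2.65 (2.40 to 2.44). In WT skin the lowest were Zfp808 in replicate 4 at 6.38 (6.80 to 6.86), Zfp40 in replicate 1 at 4.43 (4.72 to 4.75) and Zfp266 in replicate 4 at 10.3 (10.60 to 10.65). The highest were Zfp35 in replicate 2 at 6.71 (6.42 to 6.45), Zfp42 in replicate 1 at 3.58 (3.23 to 3.27) and Zfp959 in replicate 2 at 5.84 (5.45 to 5.50).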

How the results depend on the processing

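No Zfp gene changed direction in any of 17 alternatives, which was nearly fixed in advance. The genes were selected for log2 changes above 0.5 in size, and the block, the variance models and the filters leave each change as it was. Of the 61 genes, 28 (19 rises, 9 falls) passed the threshold in every refit that included them. After centring, quantile normalization and cyclic loess 27, 33 and 32 rises passed beside 22 falls in each, and the median change of the 61 genes was 0.48, 0.49 and 0.48 in place of 0.59. With each setting's median of all probe sets subtracted it was 0.50, 0.49 and 0.49, against 0.50 as deposited. For centring this equality was fixed in advance, since centring lowers every change by the same amount. Rises were 63.9% of the Zfp genes called as deposited and 55.1% after centring, where those of all called probe sets went from 71.4% to 49.1%. With dim probe sets left out, 35 genes remained and all passed (23 higher, 12 lower). Without variance moderation 24 rises and 10 falls passed. Leaving out 1 array at a time gave 30 to 35 rises, 11 to 21 falls and a median change of 0.54 to 0.61; fewest falls passed without KO replicate 2 (11), WT replicate 3 (12) and KO replicates 1 and 4 and WT replicate 1 (14 each). Fewer arrays also lower the number of all probe sets called, from 7194 (21.3%) to between 4821 and 6424. Without KO replicate 3 and WT replicate 1 together, a setting chosen after seeing the data, 26 rises and 18 falls passed and the median was 0.53. With the replicate number as a block 36 rises and 20 falls passed, though the numbers were not taken as pairs. The planned choice of the dimmer probe set could not be run, since each gene had 1 probe set in the authors' table. The cause of these differences was not tested beyond what the settings themselves change.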
